A study of Mus musculus with 12 samples.

Results

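The canonical NF-kB pathway was followed through 10 genes, matched by Entrez gene number to their mouse symbols in a table of 27179 genes. They were grouped by role as 3 Rel family subunits (Nfkb1, Rel, Rela), 3 members of the IkB family (Nfkbia, Nfkbie, Bcl3), 3 feedback and survival genes (Tnfaip3, Birc3, Traf1) and the adhesion gene Icam1. All 10 passed the low-count filter and were measured in every library. The RNA came from mature B cells of the bone marrow of C57BL/6 mice, sorted as B220high IgM+ CD93-. There were 4 groups of 3 libraries. Young wild-type mice were 9, 10 and 11 weeks old and old wild-type mice were 98, 99 and 100 weeks old. The remaining groups were 10 weeks old and both were Bak-/-. The apoptosis-sensitive group carried Baxfl/fl, in which Bax is flanked by recombination sites and intact, and the apoptosis-resistant group carried BaxD/D, in which Bax is deleted. The sources used here do not name the Cre driver that deleted Bax, the deleted exons or the sex of the mice. The design calls replicates biological, and does not say whether a library held 1 mouse or a pool.

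NF-kB is a family of dimeric transcription factors. In resting cells IkB proteins hold the canonical dimers, built from RelA or c-Rel with p50, in the cytoplasm. Receptors such as the B cell receptor, CD40, Toll-like and TNF receptors activate the IKK kinase complex, which marks IkB for destruction and frees the dimers to enter the nucleus, where they switch on survival genes and also their own inhibitors. In mature B cells this pathway supports survival and the response to antigen. The RNA levels below do not measure that activity, which is set mostly by where the proteins are.

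Several of these genes are known targets of the pathway that they restrain, so their promoters were searched for the kappa B consensus, a 10-base motif, on both strands from 250 bases before to 50 bases after the start in RefSeq (GRCm38.p6). Of the 10 genes 9 were in the promoter table, and Nfkb1 was not. A match was found for 5 of the 9, against 5.14% of the 27025 genes in the table (4.51% of 32851 windows). A looser form of the motif was found in the same number, 5 of 9, against 12.6% of genes. The 10 genes were chosen as subunits and targets of this pathway, so these shares are descriptions and not independent support. The stretches that hold the matches are shown because they include the genes that differed most by genotype, with every base covered by a match in capitals and matches overlapping in Rel. Bases are counted from the start of transcription.
Nfkbia, chr12:55492648-55492797, minus strand: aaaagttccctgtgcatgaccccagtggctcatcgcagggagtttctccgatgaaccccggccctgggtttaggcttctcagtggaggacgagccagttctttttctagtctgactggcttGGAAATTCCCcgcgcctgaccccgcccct
Nfkbie, chr17:45555540-45555699, plus strand: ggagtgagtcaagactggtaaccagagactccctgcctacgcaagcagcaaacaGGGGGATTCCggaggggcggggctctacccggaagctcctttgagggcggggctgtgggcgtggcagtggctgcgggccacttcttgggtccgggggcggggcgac
Bcl3, chr7:19822736-19822815, minus strand: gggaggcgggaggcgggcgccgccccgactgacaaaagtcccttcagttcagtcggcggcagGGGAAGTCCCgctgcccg
Rel, chr11:23770970-23771119, minus strand: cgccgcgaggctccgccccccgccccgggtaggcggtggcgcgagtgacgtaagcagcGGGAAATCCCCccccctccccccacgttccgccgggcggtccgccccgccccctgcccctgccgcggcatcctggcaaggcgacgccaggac
Tnfaip3, chr10:19015411-19015570, minus strand: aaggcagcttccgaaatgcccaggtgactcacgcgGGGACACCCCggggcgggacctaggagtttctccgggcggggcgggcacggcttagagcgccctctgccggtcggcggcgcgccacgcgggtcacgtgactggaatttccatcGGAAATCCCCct
Negative positions lie before the start. The match spans positions -29 to -20 in Nfkbia, -106 to -97 in Nfkbie, -92 to -82 in Rel and 3 to 12 in Bcl3. Tnfaip3 held a pair of matches, at -125 to -116 and at -12 to -3. The windows of Birc3, Icam1, Rela and Traf1 held no match, which says only that these letters were not in those windows. A match is a description of sequence, and binding was not measured.

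Total counts ran from 13474162 to 23539764 per library, and levels are given in CPM, reads of a gene relative to its library's total on the usual CPM scale, after TMM scaling. The libraries held B cell RNA by its markers: 11 of 11 B cell identity genes were present, and their summed level ran from 14397 to 22905 CPM. This list does not test the CD93- gate or the purity of the sort. Cd93 RNA ran from 9.5 to 36.1 CPM. The 10 immature and precursor B cell markers summed to 241.1 to 1092.9 CPM, and 9 granulocyte markers to 26.8 to 787.4 CPM. RNA does not measure the surface proteins used in the sort. Bax RNA was 5.0, 6.4 and 8.4 CPM in the apoptosis-resistant libraries and 55.7, 56.3 and 100.1 CPM in the apoptosis-sensitive ones, and Bak1 ran from 6.2 to 14.4 CPM in the Bak-/- groups against 24.7 to 47.9 CPM in wild type. Same-numbered libraries shared a collection date, within the wild-type groups (24 March, 11 April, 12 April) and within the Bak-/- groups (30 May, 31 May, 7 May). Both libraries of 24 March stood apart from the other 10 on the first principal component, which held 31.9% of the variance. In addition, 20 immediate early genes, which respond within minutes to stimulation, summed to 13441 CPM in apoptosis-sensitive replicate 3, 5279 CPM in young replicate 1 and 4710 CPM in apoptosis-resistant replicate 3, and to 1820 to 2430 CPM in the other 9. Where leaving these libraries out changed a count of calls or turned the direction of a named gene, the value without them is given beside the result or in the closing section.

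**Figure D1:**
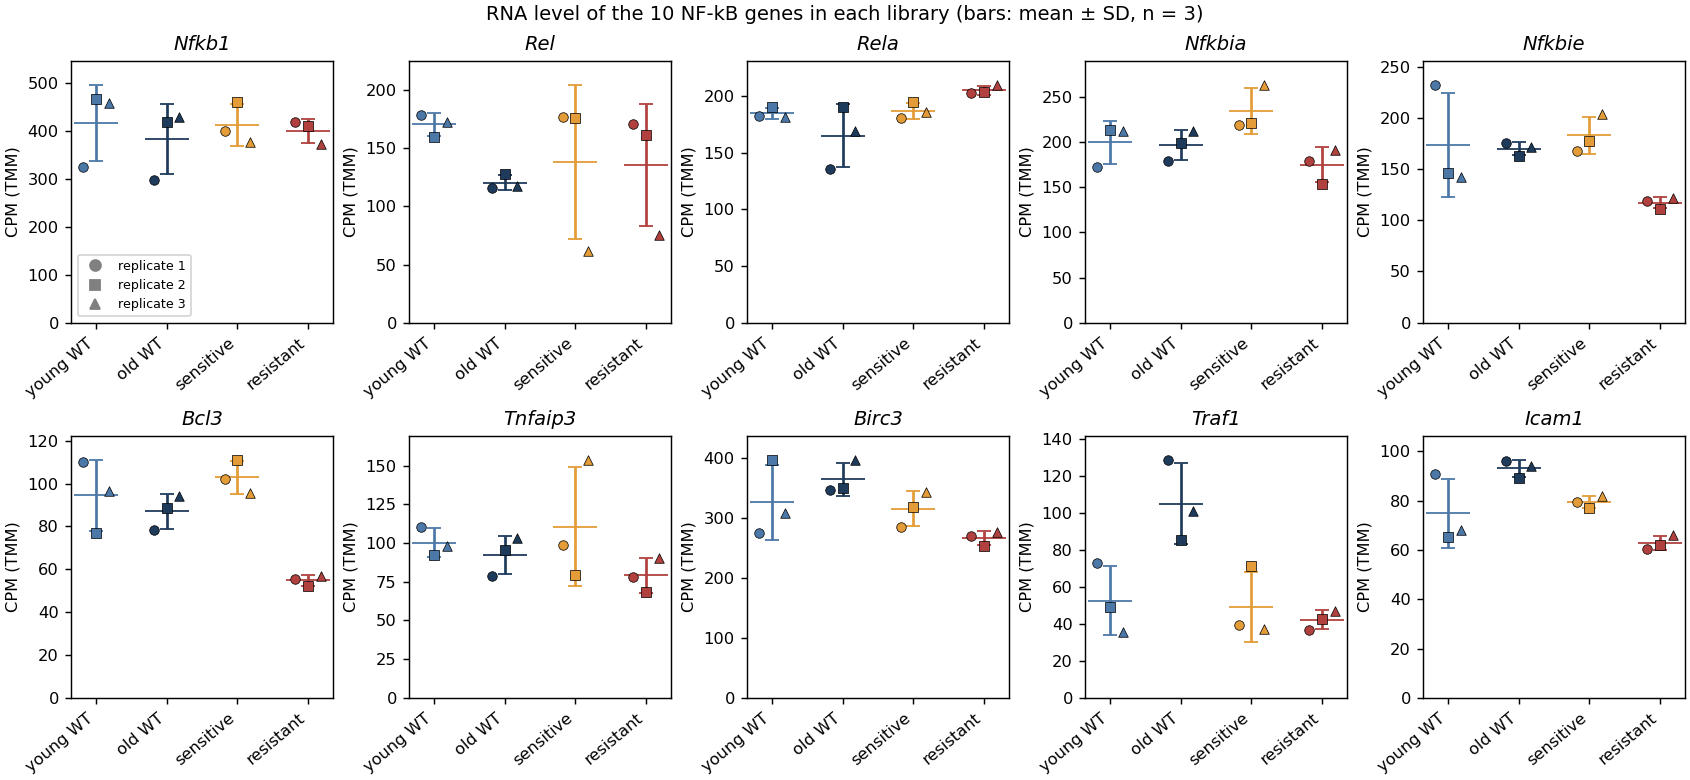
RNA level of each of the 10 genes in each library (y axis, CPM after TMM, linear from 0) for the 4 groups (x axis). Points are libraries, shaped by replicate number, and bars are the mean ± SD of 3 libraries. Bcl3 and Nfkbie lie lower in all 3 apoptosis-resistant libraries than in any apoptosis-sensitive one, Traf1 higher in all 3 old than in any young library, and Rel is low in the third library of both Bak-/- groups.

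Per kilobase of exon, which allows levels to be compared between genes, Nfkbia was the highest of the 10 (127.7 CPM per kb, mean of 12 libraries), followed by Nfkb1 at 97.9, Birc3 at 74.8, Rela at 68.3, Nfkbie at 66.0, Bcl3 at 45.9, Icam1 at 30.6, Tnfaip3 at 20.8, Rel at 18.9 and Traf1 at 15.4 CPM per kb. Neighbours in this order overlapped over the 12 libraries. Among the 3 subunits, Nfkb1 made up 46.4% to 57.2% of the summed level per kb and Rela 33.1% to 43.5%. Rel took 8.64% to 14.1% in 10 libraries and 4.90% and 5.70% in the apoptosis-sensitive and apoptosis-resistant libraries of 7 May.

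In the test across all genes by group, none of the 10 genes passed the threshold in any of the 3 comparisons (edgeR's quasi-likelihood test, Benjamini-Hochberg over 13592 genes, adjusted p under 0.05). With collection date added as a block, 3 passed for age and 3 for genotype. For age, 1.7% of all genes passed as higher and 0.309% as lower without the block, and 7.89% and 7.03% with it. For genotype, 0.0221% passed in each direction without the block, and with it 1.43% passed as higher and 1.97% as lower. DESeq2 called 1 of the 10 as higher for age, beside 3.94% of all genes (0.886% as lower), and 1 as lower for genotype, beside 0.474% (0.318% as higher). The sections below give both fits beside the values.

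**Figure D2:**
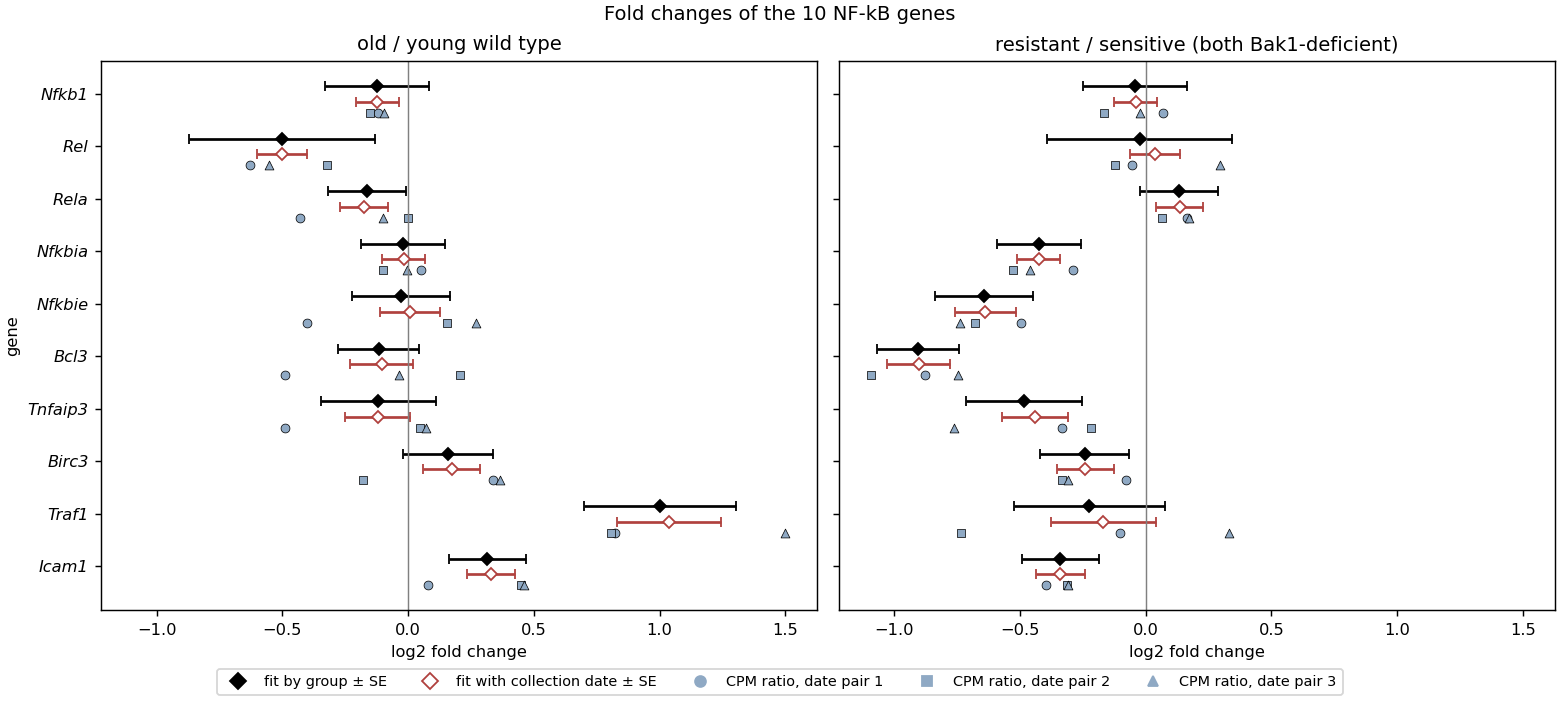
Log2 fold change (x axis) of the 10 genes (y axis) for old against young wild type (left) and apoptosis-resistant against apoptosis-sensitive (right). Filled diamonds are the fit by group and open diamonds the fit with collection date, both ± SE, and blue symbols the log2 CPM ratio within each date pair. Bcl3 lies at -0.91 by genotype with all 3 pairs on the same side, and Traf1 at 1.0 by age.

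In apoptosis-resistant cells, all 3 IkB family genes fell against apoptosis-sensitive cells with collection date in the model, and none passed in the fit by group. Bcl3, an atypical nuclear IkB protein that works with p50 or p52 dimers at target genes, was 102.1, 111.0 and 95.7 CPM in the apoptosis-sensitive libraries and 55.7, 52.1 and 57.1 CPM in the apoptosis-resistant ones. The groups were far apart, and the apoptosis-resistant libraries were also below all 6 wild-type ones, which ran from 77.0 to 110 CPM. The log2 fold change was -0.91 ± 0.16 (SE), a level 0.534 times that of apoptosis-sensitive cells, with an adjusted p of 0.1 by edgeR's quasi-likelihood test on 3 against 3 libraries. Bcl3 fell with collection date in the model (-0.90 ± 0.13, edgeR adjusted p = 0.00342), and DESeq2 also called it lower (adjusted p = 0.000159). With the date block it still passed without any 1 date pair (edgeR adjusted p of 0.0311 without 30 May, 0.0389 without 31 May and 0.0169 without 7 May).

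Nfkbie, which encodes IkB epsilon, an inhibitor prominent in B cells, was 167.4, 177.6 and 203.2 CPM in apoptosis-sensitive and 118.8, 110.9 and 121.8 CPM in apoptosis-resistant libraries. All 3 apoptosis-resistant values lay below the lowest of the other 9 libraries. The change was -0.64 ± 0.20 by group (edgeR adjusted p = 0.481) and -0.64 ± 0.12 with the date block, in which it fell (adjusted p = 0.016). Nfkbia, which encodes IkB alpha, the inhibitor that is remade first after activation, was 218.6, 221.7 and 263.5 CPM in apoptosis-sensitive and 178.8, 153.6 and 191.8 CPM in apoptosis-resistant libraries. The groups did not overlap, and the apoptosis-resistant range reached into that of wild type (172.8 to 213.7 CPM). The change was -0.42 ± 0.17 by group (edgeR adjusted p = 0.848) and -0.43 ± 0.08 with the date block, in which it fell (adjusted p = 0.0194). Neither gene's call held with a date pair left out: without 30 May, 31 May and 7 May the blocked adjusted p by edgeR was 0.0618, 0.0953 and 0.138 for Nfkbie and 0.0853, 0.164 and 0.148 for Nfkbia.

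The 3 subunits did not pass by genotype in either fit. Rela, which encodes the p65 subunit that carries a transactivation domain, was 180.4, 194.6 and 186.2 CPM in apoptosis-sensitive and 202.4, 203.5 and 209.9 CPM in apoptosis-resistant libraries, and was the only one of the 10 whose apoptosis-resistant libraries were all higher (log2 0.13 ± 0.16, edgeR adjusted p = 1, 0.514 with the block). Nfkb1, the source of p105 and p50, was 400.1, 461.8 and 378.5 CPM in apoptosis-sensitive and 419.6, 411.9 and 372.7 CPM in apoptosis-resistant libraries, which overlapped (-0.04 ± 0.21, edgeR adjusted p = 1). Rel, which encodes c-Rel, was 177.1, 175.6 and 61.6 CPM against 170.6, 161.4 and 75.6 CPM, with the third library low in both groups (-0.02 ± 0.37, edgeR adjusted p = 1).

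**Figure D3:**
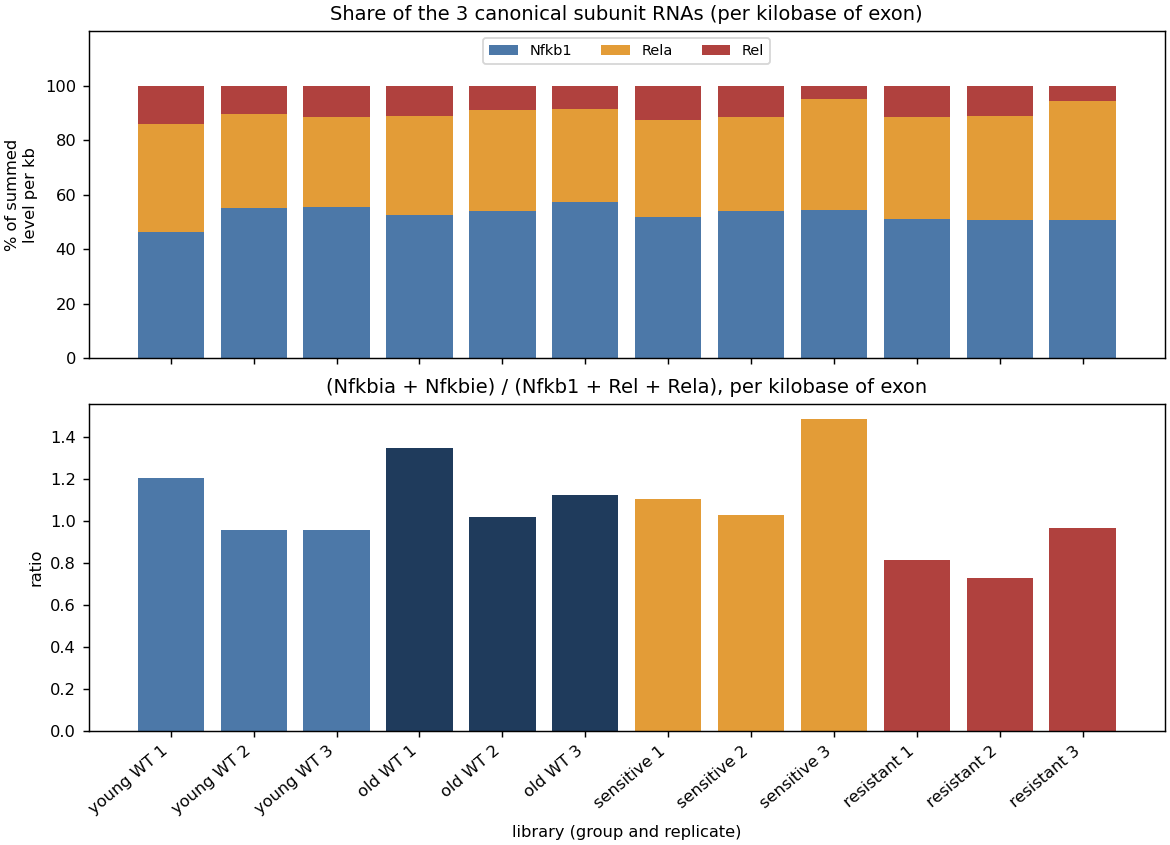
Top, share of Nfkb1, Rela and Rel in their summed level per kilobase of exon (y axis, %) in each library (x axis). Bottom, ratio of the summed level of Nfkbia and Nfkbie to that of the 3 subunits, per kilobase. The Rel share is 4.90% and 5.70% in the third library of the Bak-/- groups, and the ratio is 0.81, 0.73 and 0.97 in the apoptosis-resistant libraries against 1.11, 1.03 and 1.49 in the apoptosis-sensitive ones.

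The balance of inhibitor to subunit RNA followed from these values. The summed level per kb of Nfkbia and Nfkbie divided by that of Nfkb1, Rel and Rela was 1.11, 1.03 and 1.49 in apoptosis-sensitive libraries and 0.81, 0.73 and 0.97 in apoptosis-resistant ones, where the groups did not overlap. It was 1.21, 0.96 and 0.96 in young and 1.35, 1.02 and 1.12 in old wild type, which overlapped. This ratio was chosen after the values were seen and was not tested.

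The feedback, survival and adhesion genes did not pass by genotype in either fit, and all 4 had a fold change below 0. Icam1, an adhesion molecule for integrins of other leukocytes, was 79.6, 77.0 and 81.9 CPM in apoptosis-sensitive and 60.5, 61.9 and 66.0 CPM in apoptosis-resistant libraries, which did not overlap (-0.34 ± 0.15, edgeR adjusted p = 1, 0.0891 with the block). Tnfaip3, which encodes the ubiquitin-editing enzyme A20, a brake on IKK activation, was 98.5, 79.6 and 153.7 CPM against 78.1, 68.4 and 90.6 CPM, with the high value in the library rich in immediate early RNA. Its change was -0.48 ± 0.23 (edgeR adjusted p = 1) and -0.28 without the 7 May pair. Birc3, which encodes the ubiquitin ligase cIAP2, was 283.8, 318.3 and 341.9 CPM against 269.1, 252.5 and 276.2 CPM, apart by a small gap (-0.24 ± 0.18, edgeR adjusted p = 1), and its groups overlapped when raw library totals were used. Traf1, a signalling adaptor of TNF family receptors, was 39.5, 71.2 and 37.5 CPM against 36.8, 42.8 and 47.2 CPM, which overlapped (-0.22 ± 0.30, edgeR adjusted p = 1).

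The 10 genes and all lists were chosen with earlier results of these data known. Counts set beside the share of all genes are therefore descriptions, here and elsewhere, and not independent support. Counted together, 5 of the 10 genes were lower without overlap in apoptosis-resistant libraries (Nfkbia, Nfkbie, Bcl3, Birc3, Icam1), beside 8.31% of all genes, and 1 was higher (Rela), beside 6.32%. In all 3 date pairs 6 were lower, beside 23.2% of all genes, and 1 was higher, beside 22.0%. At an unadjusted p under 0.05 by edgeR 4 were lower, beside 2.97% of all genes, and 0 higher, beside 1.93%. The median log2 fold change was -0.29 for the 10 genes and -0.02 for all genes. With the date block 3 of 10 passed as lower, beside 1.97% of all genes. Of the 20 immediate early genes, 19 had a fold change below 0. Their median log2 was -1.36 by group and -0.69 with the block, and 0 passed in either fit. The part of immediate early RNA in the genotype differences was not tested. Markers of other cells were also compared between these groups. The 9 granulocyte markers summed to 741.2, 78.1 and 139.0 CPM in apoptosis-sensitive and 69.2, 29.5 and 67.4 CPM in apoptosis-resistant libraries. The 7 erythroid markers summed to 41.0 to 229.3 and 33.9 to 71.6 CPM, which overlapped. The 10 immature and precursor B cell markers summed to 654.2 to 1092.9 and 525.3 to 564.2 CPM. Fold changes were below 0 for 9 of 9, 7 of 7 and 9 of 10 of them, with a median log2 of -2.55, -1.73 and -0.77. Of these 0 passed by group in edgeR, and Cd24a and Cd93 of the last list passed as lower with the block. By contrast, 8 of 10 T cell and 5 of 8 monocyte and macrophage markers tested had a fold change above 0. Their median log2 was 0.40 and 0.09. All 3 NK cell markers tested had a fold change below 0. In these lists only Csf1r, a monocyte and macrophage marker, passed, as higher with the block. None of these markers was at 0 in all 3 libraries of a group. Their part in the genotype differences was not tested, and in bulk RNA fewer cells of a type and less RNA per cell cannot be told apart.

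With age and with collection date in the model, Traf1 and Icam1 rose, Rel fell, and the 3 IkB family genes did not pass. None of the 10 passed in the fit by group. Traf1 was 72.9, 49.0 and 35.9 CPM in young and 128.9, 85.7 and 101.2 CPM in old libraries. The old values lay above those of all 9 other libraries. The log2 fold change was 1.0 ± 0.30 by group (edgeR adjusted p = 0.14), and Traf1 rose with the date block (1.04 ± 0.21, edgeR adjusted p = 0.0146) and by DESeq2 (adjusted p = 0.0462). The blocked call was lost without the 24 March pair (edgeR adjusted p = 0.0767) and without the 11 April pair (0.0515), and held without the 12 April pair (0.0434).

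Rel was 178.7, 159.9 and 172.6 CPM in young and 115.5, 127.8 and 117.6 CPM in old libraries, without overlap. The change was -0.50 ± 0.37 by group (edgeR adjusted p = 0.753) and -0.49 with only the 6 libraries compared (edgeR adjusted p = 0.373). Rel fell with the date block (-0.50 ± 0.10, edgeR adjusted p = 0.00819). Without the 24 March pair the blocked adjusted p by edgeR was 0.0523, and it was 0.0151 and 0.0307 without the 11 April and 12 April pairs. Icam1 was 90.9, 65.3 and 68.3 CPM in young and 96.0, 89.3 and 93.9 CPM in old libraries, with young replicate 1 inside the old range. Its change was 0.32 ± 0.15 by group (edgeR adjusted p = 0.471), and it rose with the date block (0.33 ± 0.10, edgeR adjusted p = 0.0409). That call held without the 24 March pair (edgeR adjusted p = 0.0173) and was lost without the 11 April pair (0.177) or the 12 April pair (0.158).

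The other 7 genes did not pass with age in either fit. Nfkb1 was 324.6, 466.4 and 459.8 CPM in young and 298.7, 420.0 and 430.1 CPM in old libraries, so that the 24 March library was the lowest of each group. Rela was 182.4, 190.6 and 181.2 CPM in young and 135.3, 190.6 and 169.0 CPM in old libraries, which overlapped. Nfkbia was 172.8, 213.7 and 212.7 CPM in young and 178.9, 199.3 and 212.4 CPM in old libraries, with nearly the same mean (-0.02 ± 0.17). Nfkbie and Bcl3 overlapped between the ages too. Nfkbie was 232.1, 146.1 and 142.0 CPM in young and 175.5, 162.8 and 171.3 CPM in old libraries, and Bcl3 was 109.9, 77.0 and 96.5 CPM in young and 78.3, 88.8 and 94.1 CPM in old ones. Tnfaip3 was 110.4, 92.1 and 98.3 CPM in young and 78.7, 95.3 and 103.2 CPM in old libraries. Birc3 was 274.0, 395.3 and 307.5 CPM in young and 345.9, 349.2 and 395.9 CPM in old libraries. The lowest edgeR adjusted p of these 7 was 0.852 by group and 0.238 with the block, both for Rela.

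Without overlap, 1 of the 10 genes was higher in old libraries, beside 9.16% of all genes, and 1 was lower, beside 6.96%. In all 3 date pairs 2 were higher, beside 22.8% of all genes, and 3 were lower, beside 25.2%, where Rela was equal in the second pair to the precision shown. At an unadjusted p under 0.05 by edgeR 1 was higher (Traf1), beside 8.06% of all genes, and 0 lower, beside 3.52%. The 2 of 10 passing as higher and the 1 of 10 passing as lower with the date block stand beside 7.89% and 7.03% of all genes. The median log2 fold change was -0.07 for the 10 genes and -0.03 for all genes. Of the 20 immediate early genes, 18 had a fold change below 0. Their median log2 was -0.67 by group and -0.54 with the block. By group 0 passed, and with the block 3 passed as lower (Btg2, Dusp2, Egr3), beside 7.03% of all genes. The part of immediate early RNA in the age differences was not tested. Markers of other cells moved with age: 10 monocyte and macrophage markers summed to 19.2 to 132.9 CPM in young and 52.6 to 208.8 CPM in old libraries, 6 NK cell markers to 1.3 to 3.4 and 7.2 to 11.8 CPM, 10 T cell markers to 38.2 to 74.6 and 42.9 to 84.4 CPM, and 9 stromal and endothelial markers to 211.7 to 353.2 and 211.0 to 477.8 CPM. All 8 monocyte, all 3 NK cell and 7 of 8 stromal markers tested had a fold change above 0, with a median log2 of 1.94, 2.79 and 2.34. In each of these lists 1 passed as higher by group, and with the block 6, 3 and 5. The NK cell sums did not overlap between the ages, while the monocyte, T cell and stromal sums did. Of the T cell markers 9 of 10 had a fold change above 0, with a median log2 of 2.70. By group 2 T cell markers passed as higher, and with the block 6 (Cd3e, Cd3g, Cd4, Cd8a, Trac, Trbc1). The 10 immature and precursor B cell markers summed to 313.2 to 696.6 CPM in young and 241.1 to 523.9 CPM in old libraries, and 8 of 10 had a fold change below 0, with a median log2 of -1.31. Of these 1 passed as lower by group and 6 with the block (Cd24a, Cd93, Rag1, Rag2, Vpreb1, Vpreb3). The 6 plasmacytoid dendritic cell markers summed to 639.3 to 753.8 CPM in young and 640.7 to 884.5 CPM in old libraries. Of the 5 tested, 4 had a fold change above 0, 1 passed as higher by group and 2 with the block (Ccr9, Tcf4). All 6 plasma cell markers had a fold change above 0, with a median log2 of 0.59, and 0 passed in either fit. No granulocyte, erythroid or megakaryocyte marker passed in either fit. None of these markers was at 0 in all 3 libraries of a group, and their part in the age differences was not tested. The summed B cell identity genes were lowest in old replicate 1, at 14397 CPM. All 11 had a fold change below 0 with age, with a median log2 of -0.25. Of them 0 passed by group, and 2 passed as lower with the block (Cr2, Fcer2a), beside 7.03% of all genes. Their part in the age differences was not tested.

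**Figure D4:**
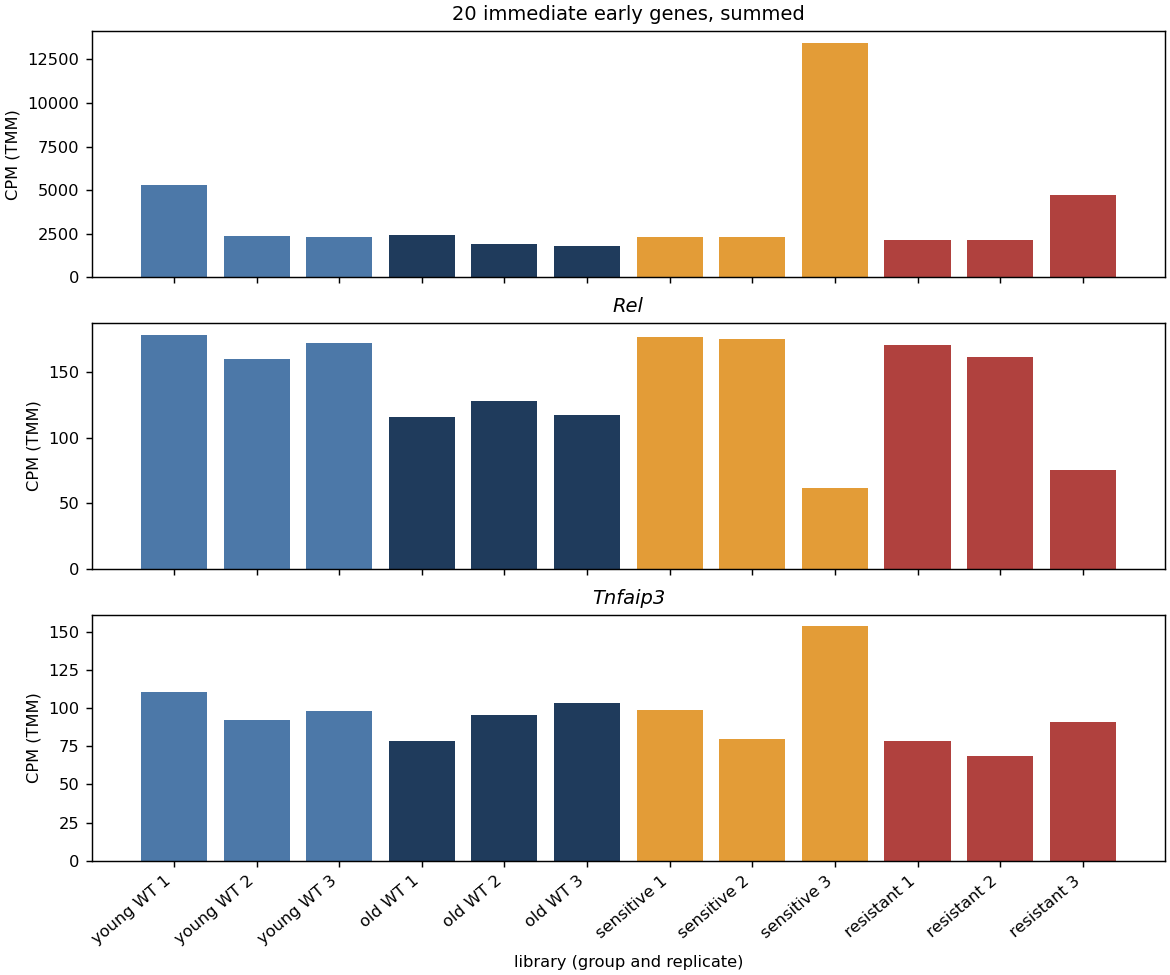
Summed level of 20 immediate early genes (top) and levels of Rel (middle) and Tnfaip3 (bottom) in each library, in CPM after TMM, coloured by group. Apoptosis-sensitive replicate 3 has the highest immediate early sum (13441 CPM) and the highest Tnfaip3 (153.7 CPM), and both 7 May libraries have Rel of 61.6 and 75.6 CPM against 115.5 to 178.7 CPM in the other 10.

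Within the Bak-/- groups the libraries of 7 May differed from their replicates in a way shared by both genotypes. Rel was 61.6 and 75.6 CPM in them and 115.5 to 178.7 CPM in the other 10 libraries. The immediate early gene Fos was 1532 CPM in the apoptosis-sensitive and 276 CPM in the apoptosis-resistant library of that date, and 2.35 to 9.59 CPM in the other Bak-/- libraries. Nfkbia and Tnfaip3 were highest in apoptosis-sensitive replicate 3 of all 12 libraries. Young replicate 1, also high in Fos (608 CPM), had Rel at 178.7 CPM, the highest of the 12. The part of date or immediate early RNA in these levels was not tested.

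Apoptosis-sensitive cells and young wild-type cells differ in Bak1 and in the Baxfl/fl allele. They share no collection date, so that date and genotype cannot be told apart. Between them 0 of 10 genes passed the threshold. For all genes that count was 0 by edgeR, with 140 higher and 231 lower at an unadjusted p under 0.05 (1.03% and 1.7%), of which none were among the 10, and 15 by DESeq2, again with none of the 10 (0.0498% of all genes as higher and 0.0569% as lower). The largest of the 10 changes were Rel at -0.30 ± 0.37 and Nfkbia at 0.23 ± 0.17. Without apoptosis-sensitive replicate 3 Rel was at 0.057, so that its direction turned, and Nfkbia at 0.145. Nfkbia was the only one without overlap, higher in apoptosis-sensitive libraries, beside 4.57% of all genes. No gene was lower without overlap, beside 4.25%. The median was 0.05 for the 10 genes and -0.01 for all genes. This comparison shares libraries with both others.

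The wider pathway was read from 6 lists with 101 genes, of which 97 were tested: the other Rel and IkB family members, the IKK complex and its upstream kinases, the antigen receptor arm, the TNF, CD40 and Toll-like receptor arm, ubiquitin editors and other brakes, and other induced targets. By genotype 1 of 97 passed as lower and 0 as higher, beside 0.0221% of all genes in each direction. With the date block 6 passed as lower (Ccnd2, Ccr7, Ebi3, Nfkb2, Relb, Rilpl2), beside 1.97% of all genes, and 2 as higher (Cd80, Fas), a share near the 1.43% of all genes. The gene that passed by group was Ccnd2, which encodes the G1 cyclin D2. It fell from 122.6 ± 12.3 to 28.8 ± 3.40 CPM (SD, n = 3), with a log2 fold change of -2.09 ± 0.30 (edgeR adjusted p = 0.0449). The call was lost without any 1 of the 6 libraries compared (edgeR adjusted p from 0.151 to 0.281, with log2 -2.18 at the lowest) and without the 7 May pair (-2.09, edgeR adjusted p = 0.57). With the date block it held without 30 May (edgeR adjusted p = 0.0398) and 31 May (0.0417) and was lost without 7 May (0.0545). Of the 5 other Rel and IkB family genes all 5 had a fold change below 0 and none passed by group. Nfkb2, the source of p100 and p52 of the noncanonical arm, was 432.3, 508.6 and 384.6 CPM in apoptosis-sensitive and 276.6, 282.1 and 217.7 CPM in apoptosis-resistant libraries. The change was -0.77 ± 0.21 (edgeR adjusted p = 0.395), and Nfkb2 fell with the date block (adjusted p = 0.00342), also without any 1 date pair (edgeR adjusted p from 0.0256 to 0.0383). Relb, the partner of p52, was 123.7, 122.7 and 150.2 CPM against 94.6, 99.6 and 108.0 CPM (-0.39 ± 0.15, edgeR adjusted p = 0.787), and fell with the date block (adjusted p = 0.0295). That call was lost without any 1 date pair (edgeR adjusted p from 0.102 to 0.235).

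Of the genes that lie upstream, 0 of 11 in the IKK list, 0 of 7 in the antigen receptor arm and 0 of 16 in the receptor arm passed by genotype in either fit, nor did any of the 15 editors and brakes. In the IKK list the lowest p belonged to Ikbkg, the regulatory subunit NEMO (0.15), and Map3k14, the kinase NIK (0.19), in the antigen receptor arm to Prkcb (0.25) and Malt1 (0.14), each given as a log2 fold change with an edgeR adjusted p of 1. In the receptor arm Traf2 was at -0.33 and Cd40 at -0.27 (edgeR adjusted p of 0.849 and 1). In the list of ubiquitin editors and other brakes Tank was at -0.26 and Ubash3b at -0.40 (edgeR adjusted p = 1 for both).

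With age 4 of 97 passed as higher, all of them induced targets (Cd80, Fas, Ccl5, Cxcl10), beside 1.7% of all genes, and 0 as lower, beside 0.309%. With the date block 16 passed as higher (these 4, Bcl2a1b, Bcl2a1d, Cd83, Il15, Irf1, Psmb9, Rnf11, Tlr7, Tnfaip8, Tnfrsf1b, Ubash3b and Vcam1), beside 7.89% of all genes, and 5 as lower (Ccr7, Ikbkb, Malt1, Nfkb2, Traf3), no larger a share than the 7.03% of all genes. Without the 24 March pair 2 passed as higher by group (Cd80, Irf1), and with the block 9 as higher and 0 as lower. Cd80, a costimulatory ligand for T cells, rose from 2.67 ± 0.252 to 19.4 ± 10.1 CPM (log2 2.86 ± 0.40, edgeR adjusted p = 0.00563). Fas, a death receptor, rose from 4.21 ± 0.812 to 18.7 ± 4.48 CPM (2.15 ± 0.44, edgeR adjusted p = 0.0318). The chemokine Ccl5 rose from 0.273 ± 0.168 to 3.41 ± 1.0 CPM (3.55 ± 0.75, edgeR adjusted p = 0.0362), and the chemokine Cxcl10 from 0.226 ± 0.321 to 6.47 ± 2.26 CPM (4.81 ± 1.09, edgeR adjusted p = 0.0486), all as SD with n = 3. Cd80 passed without any 1 of the 6 libraries and without the 24 March pair (edgeR adjusted p = 0.0216). Without that pair the calls of Fas (edgeR adjusted p = 0.114), Ccl5 (0.0811) and Cxcl10 (0.11) were lost, and each was also lost without most single libraries. With only the 6 libraries compared none of the 4 passed (edgeR adjusted p from 0.0819 to 0.143). With the date block Cd80, Fas and Ccl5 passed without any 1 date pair, and Cxcl10 did not without 24 March (edgeR adjusted p = 0.0877) or 11 April (0.0833). Ccl5 and Cxcl10 are also made by T, NK and myeloid cells, whose marker sums are given above. For Cd80, Fas and the genes that passed only with the block, bulk RNA does not show which cells held the RNA either. Vcam1 is also 1 of the 5 stromal and endothelial markers that passed as higher with the block.

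No gene of the other 5 lists passed with age by group. Nfkb2 was at -0.52 (edgeR adjusted p = 0.342, 0.0103 with the block) and Nfkbid, an atypical nuclear IkB, at -1.42 (0.387, 0.141 with the block). Nfkbid was 377.9, 85.6 and 99.1 CPM in young and 97.8, 47.5 and 64.7 CPM in old libraries, with young replicate 1 far above the rest, and its change was -0.72 without the 24 March pair. In the IKK list Map3k8 was at -0.28 (edgeR adjusted p = 0.77) and Ikbkb at -0.38 (0.819, 0.034 with the block). Ikbkb, the catalytic subunit IKK beta, was 953.1, 437.8 and 432.1 CPM in young and 673.8, 336.5 and 387.7 CPM in old libraries, high in both of 24 March. Its change was -0.26 without that pair, where the blocked call was lost (edgeR adjusted p = 0.154), and turned to 0.13 without young replicate 1. In the antigen receptor arm the paracaspase Malt1 was at -0.35 (edgeR adjusted p = 0.693, 0.0206 with the block) and the kinase Btk at -0.28 (0.708). In the receptor arm Traf2 was at -0.23 (edgeR adjusted p = 0.599) and the TNF receptor gene Tnfrsf1b at 0.57 (0.604, 0.00928 with the block). Among the editors and brakes Ubash3b was at 1.31 (edgeR adjusted p = 0.0687, 0.00255 with the block) and Rnf11 at 0.48 (0.382, 0.0279 with the block). Of these blocked calls only that of Ubash3b held without any 1 date pair.

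In apoptosis-sensitive against young wild-type cells 0 of 97 passed. The lowest p in each list belonged to Nfkb2 (-0.26) and Nfkbib (0.13), Ikbkb (-0.58) and Map3k7 (-0.24), Bcl10 (0.47) and Malt1 (-0.26), Traf3 (-0.41) and Tnfrsf1b (0.50), Rnf11 (0.29) and Sharpin (-0.53), and Rilpl2 (0.93) and Ccr7 (0.84), as log2 fold changes. Their edgeR adjusted p was 0.824, and 0.864 for Nfkbib.

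Averaged on the log2 CPM scale, each centred on its own mean over the 12 libraries, the 10 genes stood at -0.20, -0.26 and -0.24 in the apoptosis-resistant libraries and between -0.01 and 0.18 in the other 9. The 5 genes whose centred levels lay closest to that average were Rras, Utp4, Tsr1, Afg3l2 and Wdr3, with root mean square differences of 0.0924 to 0.0982 over the 12 libraries. Among the 10 themselves Icam1 lay closest to the average (0.149), then Birc3 (0.164), Nfkbia (0.185), Nfkbie (0.200), Nfkb1 (0.239), Bcl3 (0.245), Rela (0.261), Tnfaip3 (0.262), Rel (0.490) and Traf1 (0.535). This measure is also small for a gene that varied little over the 12 libraries. By itself it therefore does not show a shared pattern. The points share libraries and depth, and no test was made.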

How the data were processed

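Counts of reads per gene were used as the authors deposited them. Subread, featureCounts and mm10 are named in the submitters' processing notes. The sources used here give no version, annotation or strand setting, so reads from the RefSeq lncRNAs that overlap Traf1 (Gm52552), Nfkb1 (Gm46827) and Bcl3 (Gm16174) cannot be told apart from theirs. Symbols came from RefSeq GRCm38.p6, which matched 25275 of 27179 genes. Exon lengths for levels per kilobase came from the GENCODE vM21 basic annotation.

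Genes were kept by filterByExpr (minimum 10 reads), which left 13592. All 12 libraries were fitted by group with TMM and edgeR 4.0.16's robust quasi-likelihood test (8 residual degrees of freedom). Benjamini-Hochberg adjustment ran over all genes tested, and 0.05 was the threshold. DESeq2 1.42.0 and a fit with collection date as block (4 residual degrees of freedom) were alternatives. The pairing comes from the labelled dates. Deviations from the group means of same-numbered libraries correlated at 0.745, 0.512 and 0.555 in wild type and 0.284, 0.325 and 0.487 in the Bak-/- groups. The label of the 24 March libraries gives the year as 2006 and the others as 2016. The edgeR fits by group and with the block were run on simulated counts, which held no effect of date. DESeq2 was not run on them.

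The 10 genes and all lists were chosen with earlier results of these data known. From each list every gene past the threshold in the fit by group was named, otherwise the 2 with the lowest p. Other genes that passed only with the block were named after their values were seen. Motif searches and ratios were descriptions with no test.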

Additional observations from a re-analysis of the deposited data

How the results depend on the processing

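None of the 10 genes was called in the fit by group, nor under RLE size factors, without the low-count filter, with only the 6 libraries compared, or with 1 library or the 24 March or 7 May pair left out. DESeq2 called 1 as higher with age (Traf1) and 1 as lower by genotype (Bcl3). The replicate block (collection date) called 2 as higher and 1 as lower with age and 3 as lower by genotype. With a date pair left out of the block fit, a choice made after seeing the data, as for the 7 May pair, 1 was called as lower by genotype each time (Bcl3). For age 1 was higher without 24 March (Icam1), 1 lower without 11 April (Rel), and 1 in each direction without 12 April (Traf1, Rel). No paired analysis was possible between apoptosis-sensitive and young wild-type libraries because they share no date. Precision is limited by 3 libraries per group.

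Over all genes, 273 passed with age, 6 by genotype and 0 between apoptosis-sensitive and young cells. DESeq2 gave 735, 127 and 15. Without the low-count filter 11 passed by genotype and 3 between apoptosis-sensitive and young cells. With only the 6 libraries compared, 1 passed with age. Under the replicate block 2028 passed with age and 463 by genotype, and with a date pair left out 925 (24 March), 1175 (11 April) and 1714 (12 April) with age and 131 (30 May), 173 (31 May) and 139 (7 May) by genotype. Leaving out 1 library gave 75 to 238 with age, 0 to 5 by genotype and 0 to 1 between apoptosis-sensitive and young cells. For age the count fell by over 1.5 times without young replicate 1 (165) or 2 (75) and old replicate 2 (86) or 3 (160), and also without young replicate 3. By genotype it was 0 without apoptosis-sensitive replicate 1 or apoptosis-resistant replicate 3, 1 without apoptosis-resistant replicate 1 or 2, and 2 without apoptosis-sensitive replicate 2. Between apoptosis-sensitive and young cells it was 3 without the 24 March pair and 1 without the 7 May pair, which left 0 by genotype. Of the other pathway genes, 4 were called as higher with age and 1 as lower by genotype. DESeq2 gave 7 and 2, and with only the 6 libraries compared 0 were higher with age. The block gave 16 as higher and 5 as lower with age, with 9 higher without 24 March, 10 and 1 without 11 April, and 13 and 3 without 12 April. By genotype it gave 2 as higher and 6 as lower, with 1 and 3 without 30 May and without 31 May, and 0 and 1 without 7 May. In the fit by group 2 were higher with age without the 24 March pair, and 0 lower by genotype without the 7 May pair. Leaving out 1 library gave 1 to 2 higher with age and 0 lower by genotype. The cause of these shifts was not tested. On raw library totals the young mean of Rela was 177 CPM, and 2 of the 10 genes (Icam1, Traf1) were higher with age without overlap.

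Signs changed for the following changes, none of them called by group or under that setting. With age and the replicate block, Nfkbie was at 0.0078 (log2), and Nfkbia at 0.024 without 11 April. Without the 24 March pair, Tnfaip3, Bcl3 and Nfkbie were at 0.062, 0.088 and 0.22 in the block fit and 0.063, 0.080 and 0.22 in the fit by group. By genotype and the block, Rel was at 0.037, at 0.093 without 30 May and at 0.13 without 31 May, where Nfkb1 was at 0.032 and Traf1 at 0.13. Between apoptosis-sensitive and young cells, Traf1 was at 0.23 without the 24 March pair, and without the 7 May pair Nfkbie, Tnfaip3, Nfkb1, Rel and Traf1 were at -0.0035, -0.17, 0.050, 0.052 and 0.078. Leaving out 1 library, the age change ranged from -0.26 to 0.026 for Nfkb1, -0.096 to 0.042 for Nfkbia, -0.16 to 0.26 for Nfkbie and -0.25 to 0.024 for Bcl3. The genotype change ranged from -0.090 to 0.051 for Nfkb1, -0.37 to 0.27 for Rel and -0.38 to 0.14 for Traf1. Between apoptosis-sensitive and young cells it ranged from -0.14 to 0.072 for Nfkb1, -0.53 to 0.057 for Rel, -0.023 to 0.054 for Rela, -0.054 to 0.37 for Nfkbie, -0.022 to 0.27 for Bcl3, -0.16 to 0.32 for Tnfaip3, -0.13 to 0.099 for Birc3, -0.47 to 0.24 for Traf1 and -0.020 to 0.28 for Icam1. Of the other pathway genes named, leaving out 1 library moved the age change of Ikbkb from -0.75 to 0.13, the genotype change of Malt1 from -0.042 to 0.30, and, between apoptosis-sensitive and young cells, Nfkbib from -0.14 to 0.26 and Sharpin from -0.76 to 0.095. Nfkbib was at -0.15 without the 7 May pair and Sharpin at 0.087 without the 24 March pair.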
